A study of Mus musculus with 2 samples.

Results

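The 82 probes described here are the probes for both arms of 41 miRNA hairpins, out of 420 miRNA probes on a rat nCounter code set. They were taken by name, as each miRNA with a 5p and a 3p probe of the same number and letter, after a fixed list of miRNA numbers had been set aside. The code set held 50 such pairs, of which 9 were left out by that list. A mouse miRNA gene of the same number exists for 26 of the 41 hairpins (52 probes). None of the same number is annotated for the other 15, which have numbers between miR-3545 and miR-3594 (30 probes). These 15 are called rat-named below, although the probes of the other 26 carry rat names too. With or without a mouse gene means, throughout, a gene of that number. A mouse miRNA under another name was not searched for.

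The samples were extracellular vesicles (EVs), membrane particles that cells release, from primary cortical astrocytes of newborn GFAP-EGFP mice, whose transgene puts a green fluorescent protein under an astrocyte promoter; per the labels nearly all cultured cells stained for GFAP. The IL-1β sample held EVs collected 2 h after IL-1β, an inflammatory cytokine, was added at 200 ng per ml. The control sample held EVs from cells given no treatment, collected over 24 h. Each group was 1 sample, prepared from several pooled culture flasks per the labels' protocols, so no ratio below has a replicate check and none has a p-value. Treatment and collection time changed together and cannot be told apart. Fewer vesicles and less RNA per vesicle also cannot be told apart.

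A miRNA gene is transcribed as a precursor that folds into a hairpin, and the enzyme Dicer cuts out a short duplex with a strand from each side of it. The strand from the 5′ side is the 5p arm and the strand from the 3′ side is the 3p arm. Usually an Argonaute protein keeps one arm as the guide, and the other, the passenger, is degraded. The arms of a hairpin have different seeds, the bases by which a miRNA pairs with its target mRNAs, so the arm that is kept sets which mRNAs can be bound. Arms of one hairpin start from one transcript, and a change in their ratio does not depend on how the samples are scaled to each other.

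The sequences below are those of hairpins with a called arm (miR-342, miR-345), with 1 arm detected in both samples (miR-449c, miR-325, miR-741) or with each arm detected in at least 1 sample (miR-142). They are given so that the products of each can be compared. These sequences are RefSeq's mouse sequences of the same name (GRCm38.p6), whereas the probes carry rat names. Of the 52 member probes with a mouse gene of their number, 45 matched a mature sequence. Capitals mark the seed, bases 2 to 8.
miR-342-5p: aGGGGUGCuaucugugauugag
miR-342-3p: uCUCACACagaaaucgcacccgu
miR-345-5p: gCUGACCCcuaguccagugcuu
miR-345-3p: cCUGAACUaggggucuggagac
miR-449c-5p: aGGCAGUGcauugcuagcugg
miR-449c-3p: cAGUUGCUagcugcacuacccu
miR-325-5p: cCUAGUAGgugcucaguaagugu
miR-325-3p: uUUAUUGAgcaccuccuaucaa
miR-142-5p: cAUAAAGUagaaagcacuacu
miR-142-3p: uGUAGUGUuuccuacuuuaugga
miR-741-5p: uACGUAGAuugguaccuaucaug
miR-741-3p: uGAGAGAUgccauucuauguaga

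In none of these 6 pairs did the arms share a seed. Among the mouse mature sequences searched, which may lack members of a family, the seed of miR-449c-5p, GGCAGUG, was also that of miR-34a-5p, miR-34b-5p and miR-449a-5p. The seed of miR-449c-3p, AGUUGCU, was held by no other mouse mature sequence in the table. The precursors of the hairpins with a called arm show how the arms lie, with both arms in capitals. The miR-342 hairpin is at chr12:108658620-108658718 and the miR-345 hairpin at chr12:108836973-108837068, both on the plus strand.
miR-342 hairpin: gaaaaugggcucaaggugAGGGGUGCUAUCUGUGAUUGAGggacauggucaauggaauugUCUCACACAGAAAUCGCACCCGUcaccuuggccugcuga
miR-345 hairpin: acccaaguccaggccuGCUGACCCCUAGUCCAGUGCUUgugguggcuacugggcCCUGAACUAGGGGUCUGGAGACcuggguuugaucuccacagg

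The loop between the arms measured 20 bases in the miR-342 hairpin and 16 in the miR-345 hairpin. Among the 45 matched mature sequences, 19 began with U, the base that Argonaute proteins often prefer at the 5′ end. The count was 4 of the 9 above background in at least 1 sample and 15 of the 36 below background in both. Median GC content was 50.0% in those 9 and 51.1% in those 36. Among the matched arms, the 9 detected therefore stood close to the 36 undetected in both features. Most of the 38 arm probes above background in the control EVs had no matched sequence and were not compared. These include the higher arms of miR-532, miR-598 and miR-344a and all rat-named miRNAs.

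The 420 miRNA probes summed to 13514 counts in the IL-1β EVs and 16812 in the control EVs. The 6 positive controls summed to 8635 and 5788 counts, and the 4 mRNA probes to 39568 and 1175 counts, in IL-1β and control EVs in that order. Scaling on the positive controls was run as an alternative and lowers every miRNA ratio. The part of the mRNA difference in the miRNA ratios was not tested. Background was judged from the 8 negative controls of each sample: a count above their mean by more than 2 SD, that is above 9.67 in the IL-1β sample or above 6.41 in the control sample, was read as detected, or above background. Markers of other cells that a cortical culture could hold were at or near background. Of the 2 probes listed as neuronal (miR-124, miR-9) and the 2 listed as erythroid (miR-451, miR-144), 0 were above background in either sample. Whether each listed miRNA is exclusive to its cell type was not tested. The oligodendrocyte pair (miR-219-5p, miR-338) and endothelial miR-126 had 0 probes above background in the IL-1β EVs and 1 each in the control EVs, and the highest of these counts was 10. The code set holds no miRNA that defines astrocytes alone, so the labelled cell type was not tested by these probes.

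The arm probes carried a larger share of the miRNA counts in the IL-1β sample than in the control. They summed to 2068 counts in the IL-1β EVs, or 15.3% of the miRNA total (95% CI 14.7 to 15.9, exact binomial), and to 1915 in the control EVs, or 11.4% (10.9 to 11.9). The rise was not particular to them. Among the other 338 probes, those with no mouse gene of their number gave 7.64% in the IL-1β EVs and 5.36% in the control EVs. The remainder, which takes in let-7 and any name that could not be read as a single miRNA, gave 77.1% and 83.3%. All intervals given here cover counting error only. Above background were 30 of the 82 arm probes (36.6%) in the IL-1β EVs, where the share over all miRNA probes was 34.8%, and 38 (46.3%) in the control EVs, where it was 44.0%. Detection of the arm probes was thus close to that of the code set as a whole. The 30 detected in the IL-1β EVs were also detected in the control EVs, and 44 were below background in both.

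Detection differed between hairpins with and without a mouse gene of their number. Of the 30 probes without one, 22 (73.3%) were above background in the IL-1β EVs and 26 (86.7%) in the control EVs. Of the 52 probes with one, 8 (15.4%) were above background in the IL-1β EVs and 12 (23.1%) in the control EVs. Median counts were 18.5 and 14 for the probes without a mouse gene, and 3 and 4 for those with one, in IL-1β and control EVs in that order. The 15 hairpins without a mouse gene gave 9.01% of the miRNA counts in the IL-1β EVs and 6.69% in the control EVs, more than the 26 hairpins with one, which gave 6.29% and 4.70%. The gap was smaller among the other 338 probes. Those with no mouse gene of their number were above background for 19 of 41 (46.3%) in the IL-1β EVs and 23 of 41 (56.1%) in the control EVs. The remainder were above background for 97 of 297 (32.7%) and 124 of 297 (41.8%). That remainder takes in let-7 and any name that could not be read as a single miRNA, without a check for a mouse gene. Which RNA the rat-named probes counted in these mouse samples was not tested. Counts over all arm probes below hold both kinds, and the term rat-named is kept for the miRNAs numbered miR-3545 and above.

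Both arms were above background in both samples for 9 of the 41 hairpins, all of them without a mouse gene of their number. In 4 more, each arm passed in at least 1 sample: miR-142, and without a mouse gene miR-3557, miR-3559 and miR-3563. In 9, 1 arm passed in both samples and the other in none: miR-325, miR-342, miR-344a, miR-449c, miR-532, miR-598 and miR-741, and without a mouse gene miR-3545 and miR-3558. In 3 (miR-324, miR-345 and miR-1188), 1 arm passed in 1 sample only. In the remaining 16, neither arm passed in any sample. The paired plot of arm counts shows the 25 detected hairpins, with long bars where one arm predominated.

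**Figure D1:**
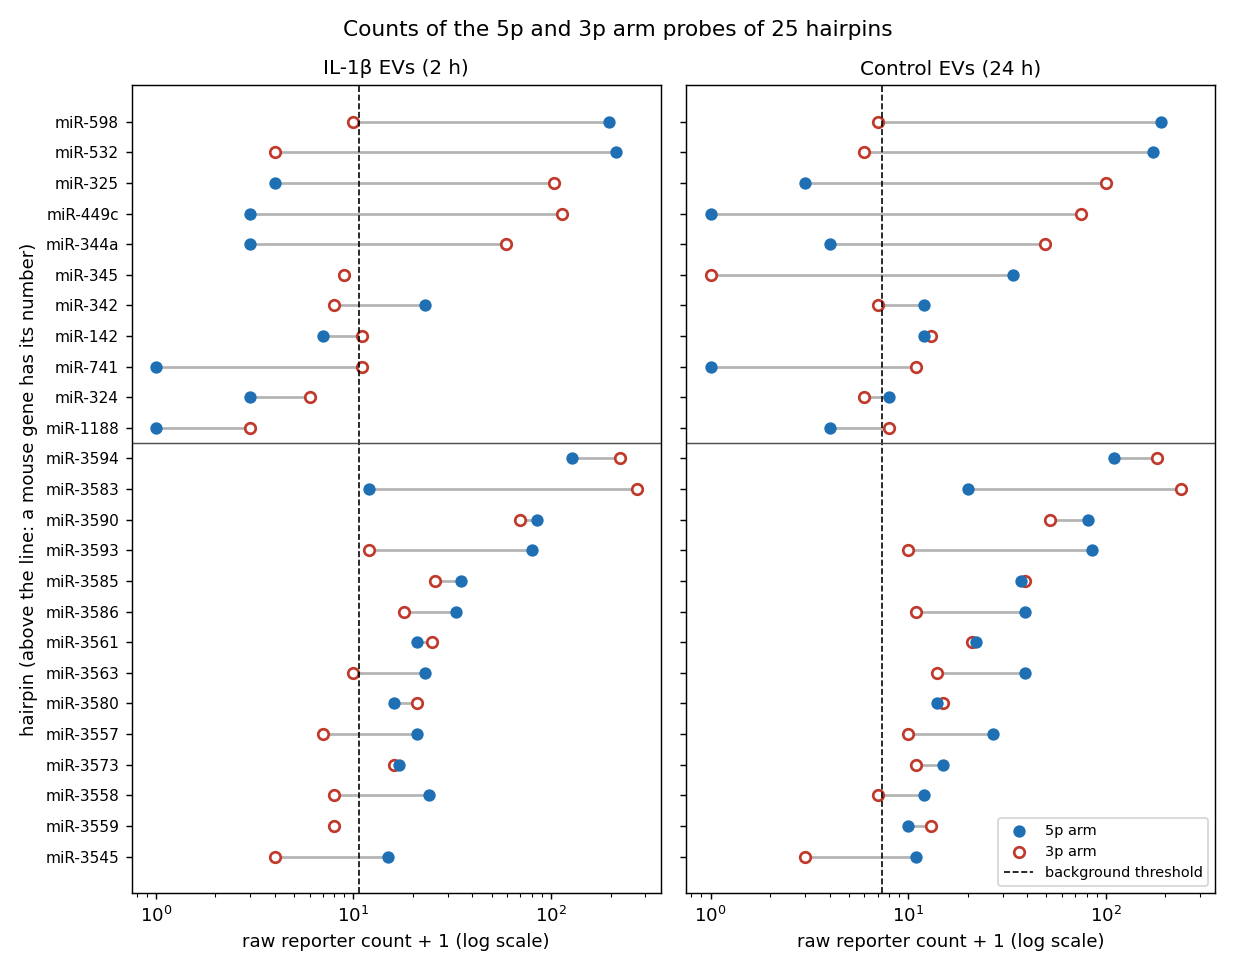
Raw counts of the 5p probe (filled) and the 3p probe (open) of the 25 hairpins with an arm above background, for IL-1β EVs on the left and control EVs on the right, as count + 1 on a log axis; the dashed line is the background threshold, 9.67 counts on the left and 6.41 on the right. The hairpins above the horizontal line have a mouse gene of their number, and 7 of those 11 hold 1 arm above the threshold and the other below it in both samples.

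Of the hairpins with a mouse gene, 5 showed a large excess of one arm in both samples. The X-linked miR-532 hairpin was counted on its 5p side. miR-532-5p had 213 counts in the IL-1β EVs and 173 in the control EVs, while miR-532-3p had 3 and 5, below background in both. The 5p arm thus made up 98.6% of the pair's counts in the IL-1β EVs (95% CI 96.0 to 99.7) and 97.2% in the control EVs (93.6 to 99.1). The miR-598 hairpin was likewise counted on its 5p side, with 195 counts of miR-598-5p in the IL-1β EVs and 189 in the control EVs, against 9 and 6 counts of miR-598-3p.

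The other 3 were counted on the 3p side. miR-449c-3p had 112 counts in the IL-1β EVs and 74 in the control EVs. Its partner miR-449c-5p, which carries the miR-34 seed printed above, had 2 and 0 counts. A count of 0 of 74 for the pair in the control EVs allows a 5p share of up to 4.86% (upper limit of the exact interval). Of the miR-34 family probes themselves, miR-34a and miR-34b were below background in both samples and miR-34c had 13 counts in the IL-1β EVs and 11 in the control EVs. miR-325-3p, from an X-linked hairpin, had 102 counts in the IL-1β EVs and 99 in the control EVs, with 3 and 2 counts for miR-325-5p. miR-344a-3p, from a family known in brain, had 58 counts in the IL-1β EVs and 48 in the control EVs, with 2 and 3 counts for miR-344a-5p. A further probe named miR-344a, with no arm in its name, had 1 and 0 counts, below background in both samples. Why it differed from miR-344a-3p was not tested. All 5 hairpins kept the same higher arm in both samples. Whether part of the difference between a pair's counts is a difference in probe efficiency was not tested.

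miR-142, a hairpin of blood-derived cells and, in brain, of microglia, was near background on both arms. miR-142-3p had 10 counts in the IL-1β EVs and 12 in the control EVs. miR-142-5p had 6 counts in the IL-1β EVs, below background there, and 11 in the control EVs. Its 5p share was 37.5% in the IL-1β EVs (95% CI 15.2 to 64.6) and 47.8% in the control EVs (26.8 to 69.4). Of the 3 microglial and leukocyte probes, both miR-142 arms and miR-223, 1 was above background in the IL-1β EVs and 2 in the control EVs, and their summed counts were 20 and 26. miR-741, of an X-linked cluster known in testis, had 10 counts of the 3p arm and 0 of the 5p arm in each sample, just above the threshold in the IL-1β sample. In that sample the counts of miR-741-3p and miR-142-3p equalled the highest negative control, 10.

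The 16 hairpins with neither arm detected include some that are typical of other tissues or stages and some that are known in brain. They are miR-10a (from a Hox gene cluster), miR-291a and miR-292 (from the cluster of early embryonic cells), miR-216b (known in pancreas), miR-139, miR-340, miR-344b and miR-384 (known in brain), and miR-148b, miR-339, miR-674, miR-702, miR-760, miR-1193, miR-1912 and the rat-named miR-3551. Over these 16 hairpins together with miR-324 and miR-1188, arm counts ran from 0 to 9 in the IL-1β EVs and from 1 to 7 in the control EVs. Among them, miR-384-5p had 0 counts in the IL-1β EVs and 1 in the control EVs. Among the sequences searched, its seed GUAAACA was shared with miR-30a-5p, miR-30c-5p and miR-30e-5p.

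Between the samples, counts were compared after scaling on the 100 best counted miRNA probes (their geometric mean), a factor of 0.875 for IL-1β over control. A probe was called where it was at least 2-fold apart with a 95% interval that excluded 1. Where a probe passed background in just 1 of the samples, the threshold of the sample that lacked it stood in for its count, which yields a bound. Such a ratio or bound could be had for 33 of the 82 arm probes, and 30 of these were ratios. The arm probes called higher in the IL-1β EVs numbered 2 of 33, where the share over all 160 valued miRNA probes was 5.62%, and 1 of 33 was called lower, where the share was 9.38%. Neither count stands out from the code set.

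The probes called higher were miR-342-5p and the rat-named miR-3558-5p. miR-342, whose gene lies in an intron of Evl and which is known in immune cells, had 22 counts of its 5p arm in the IL-1β EVs and 11 in the control EVs, a scaled ratio of 2.28 (95% CI 1.06 to 5.22). The 3p arm, miR-342-3p, was below background in both samples, with 7 counts in the IL-1β EVs and 6 in the control EVs. miR-3558-5p had 23 counts in the IL-1β EVs and 11 in the control EVs, a ratio of 2.39 (1.12 to 5.43), and its 3p arm had 7 and 6 counts. The lower ends of both intervals lie close to 1. Both calls were lost when counts were scaled on the positive controls or on the median ratio, or not scaled, and neither probe is listed in the authors' deposited table.

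The probe called lower was miR-345-5p, and its hairpin is the one in which the arms parted most. miR-345-5p had 8 counts in the IL-1β EVs, below background there, and 33 in the control EVs, which makes it at least 2.99-fold lower in the IL-1β EVs. The interval of the scaled ratio of its counts was 0.111 to 0.612. miR-345-3p had 8 counts in the IL-1β EVs and 0 in the control EVs, below background in both. The pair's 5p share was 50.0% in the IL-1β EVs (95% CI 24.7 to 75.3) and 100% in the control EVs (89.4 to 100). The change in arm ratio has an upper limit of 0.187, but it rests on 3p counts within the range of the negative controls, 0 to 10 in the IL-1β EVs and 1 to 5 in the control EVs. In the authors' deposited table the signal of miR-345-5p was 76.01 in the IL-1β EVs and 108.77 in the control EVs, a ratio of 0.699, in the same direction and under 2-fold.

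Over the 30 arm probes above background in both samples, ratios ran from 0.661 to 2.39. The ratio was above 1 in 24 of the 30, where the share over all 139 such miRNA probes was 68.3%. The median over the 33 valued arm probes was 0.37 on the log2 scale, and 0.24 over the 160 valued miRNA probes. The interval lay above 1 for 8 of the 30 arm probes, where the share over all 139 was 20.1%, and below 1 for 0 of the 30, where the share was 15.1%. Taken apart, the ratio was above 1 for 7 of the 8 arm probes with a mouse gene of their number and for 17 of the 22 without one. The median log2 ratio was 0.24 over the 9 valued arm probes with a mouse gene, the same as over all miRNA probes, and 0.38 over the 24 without one. In the plot of ratios most points sit to the right of 1 and most intervals span it.

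**Figure D2:**
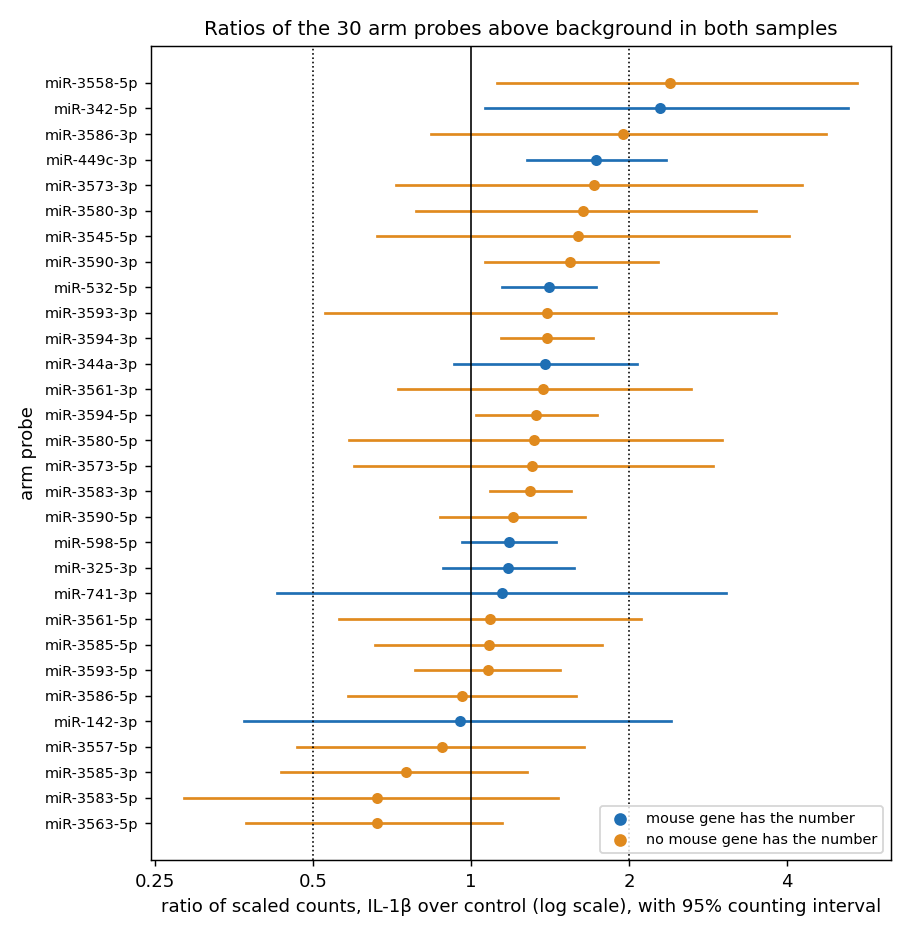
Scaled count ratio, IL-1β over control, on a log axis for the 30 arm probes above background in both samples, with lines for the 95% counting interval; blue marks probes with a mouse gene of their number and orange those without. Of the points, 24 lie above 1, and 2 lie past the 2-fold line with an interval that leaves out 1.

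Among probes with a mouse gene, the ratios of the best counted ones lay between 1 and 2. miR-449c-3p had a ratio of 1.73 (95% CI 1.28 to 2.35) and miR-532-5p a ratio of 1.41 (1.15 to 1.73). miR-532 lies in an X-linked cluster in an intron of Clcn5. Of the 6 probes of that cluster on the code set, 3 were above background in each sample, and miR-501, which is probed on 1 arm, had 160 counts in the IL-1β EVs and 97 in the control EVs, a ratio of 1.88 (1.46 to 2.45). The third, miR-188, had 16 counts in each sample. The intervals of 3 others included 1, with ratios of 1.18 (0.960 to 1.45) for miR-598-5p, 1.18 (0.884 to 1.57) for miR-325-3p and 1.38 (0.925 to 2.07) for miR-344a-3p. With counts scaled on the positive controls, miR-532-5p had a ratio of 0.817 and miR-449c-3p of 1.00, so the direction for miR-532-5p turned with that scaling. With total-count, median-ratio or no scaling both ratios stayed above 1. By the authors' deposited signals both lay below 1, at 0.847 for miR-449c-3p and 0.756 for miR-532-5p. The deposited signals also put miR-598-5p (0.794) and miR-325-3p (0.760) below 1, and miR-344a-3p (1.27) above it.

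Among the rat-named probes, the deepest counts belonged to miR-3583-3p and both arms of miR-3594. miR-3583-3p had 270 counts in the IL-1β EVs and 238 in the control EVs, a ratio of 1.30 (95% CI 1.08 to 1.55). Its partner miR-3583-5p had 11 and 19 counts, a ratio of 0.661 (0.284 to 1.46). miR-3594-3p had 221 counts in the IL-1β EVs and 181 in the control EVs, a ratio of 1.39 (1.14 to 1.71), and miR-3594-5p had 127 and 109, a ratio of 1.33 (1.02 to 1.74). By raw counts the arms of miR-3594 thus moved by nearly the same ratio. miR-3590-3p had 69 counts in the IL-1β EVs and 51 in the control EVs, a ratio of 1.55 (1.06 to 2.27), and miR-3590-5p had 84 and 80, a ratio of 1.20. The lowest ratio, 0.661 (0.373 to 1.15), was shared by miR-3563-5p, with 22 counts in the IL-1β EVs and 38 in the control EVs. The single-arm hairpin miR-3545 had 14 counts of its 5p arm in the IL-1β EVs and 10 in the control EVs, a ratio of 1.60. With counts scaled on the positive controls, miR-3583-3p, miR-3594-3p, miR-3594-5p and miR-3590-3p had ratios of 0.753, 0.810, 0.773 and 0.897. By the authors' deposited signals these probes had ratios of 0.917, 0.798, 0.979 and 0.952, in that order. Their direction thus turned in both settings.

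The comparison that pairs of probes allow is the change of the arm ratio, 5p over 3p in the IL-1β EVs divided by 5p over 3p in the control EVs, with an exact conditional 95% interval. Scaling and a constant efficiency of each probe cancel in it. Over the 9 hairpins with both arms above background in both samples, the interval excluded 1 in 0, and over all 10 such pairs on the code set, miR-199a included, the share was 0%. No change of arm ratio was detectable at these counts. The values ran from 0.499 to 1.43 with a median of 0.777. Of these 9 rat-named hairpins, 8 lay below 1, that is, toward the 3p arm in the IL-1β EVs, each with an interval that included 1. miR-199a was at 0.957. Where each arm passed in at least 1 sample, miR-3557 and miR-3559 lay above 1 and miR-142 and miR-3563 below it. A common direction was not tested. Whether both rat-named probes of a pair counted arms of a single mouse hairpin was not tested either.

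The tightest limits came from miR-3594 and miR-3590, the pairs with over 50 counts on both arms in both samples. For miR-3594 the change was 0.954 (95% CI 0.682 to 1.34), with a 5p share of 36.5% in the IL-1β EVs and 37.6% in the control EVs. For miR-3590 it was 0.777 (0.470 to 1.28), with 5p shares of 54.9% and 61.1%. The lowest value was that of miR-3586, 0.499 (0.177 to 1.34), whose 5p arm had 32 counts in the IL-1β EVs and 38 in the control EVs and whose 3p arm had 17 and 10. For miR-3583 it was 0.511 (0.215 to 1.16), with a 5p share of 3.91% in the IL-1β EVs (1.97 to 6.90) and 7.39% in the control EVs (4.51 to 11.3).

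Of the 9, the value above 1 belonged to miR-3585, at 1.43 (95% CI 0.682 to 3.03). Its 5p arm had 34 counts in the IL-1β EVs and 36 in the control EVs, and its 3p arm 25 and 38, so the higher arm was 5p in the IL-1β EVs and 3p in the control EVs, with intervals of the 5p share that overlap (44.1 to 70.4% and 36.9 to 60.6%). miR-3561 also had a different higher arm in each sample, with 20 counts of 5p and 24 of 3p in the IL-1β EVs, against 21 and 20 in the control EVs. miR-3593 stayed on its 5p side, with 79 counts of 5p and 11 of 3p in the IL-1β EVs and 84 and 9 in the control EVs. miR-3573 had 16 counts of 5p and 15 of 3p in the IL-1β EVs and 14 and 10 in the control EVs. miR-3580 had 15 and 20 counts in the IL-1β EVs and 13 and 14 in the control EVs. Their changes, 0.796 for miR-3561, 0.771 for miR-3593, 0.766 for miR-3573 and 0.810 for miR-3580, all had intervals more than 6-fold wide from end to end.

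The 4 hairpins in which each arm passed in at least 1 sample also had intervals that included 1. The change was 0.662 (95% CI 0.144 to 2.86) for miR-142, 1.15 (0.305 to 4.63) for miR-3557, 1.32 (0.279 to 6.37) for miR-3559 and 0.838 (0.277 to 2.61) for miR-3563. miR-3557 had 20 counts of 5p and 6 of 3p in the IL-1β EVs and 26 and 9 in the control EVs. miR-3559 had 7 counts of each arm in the IL-1β EVs and 9 of 5p and 12 of 3p in the control EVs. miR-3563-3p had 9 counts in the IL-1β EVs and 13 in the control EVs. Below background in the IL-1β EVs, miR-3559-3p and miR-3563-3p were bounded at no less than 1.09-fold and 1.18-fold lower there, with intervals that included 1. The plot of arm-ratio changes shows the widths, narrow for miR-3594 and several-fold for the pairs near background.

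**Figure D3:**
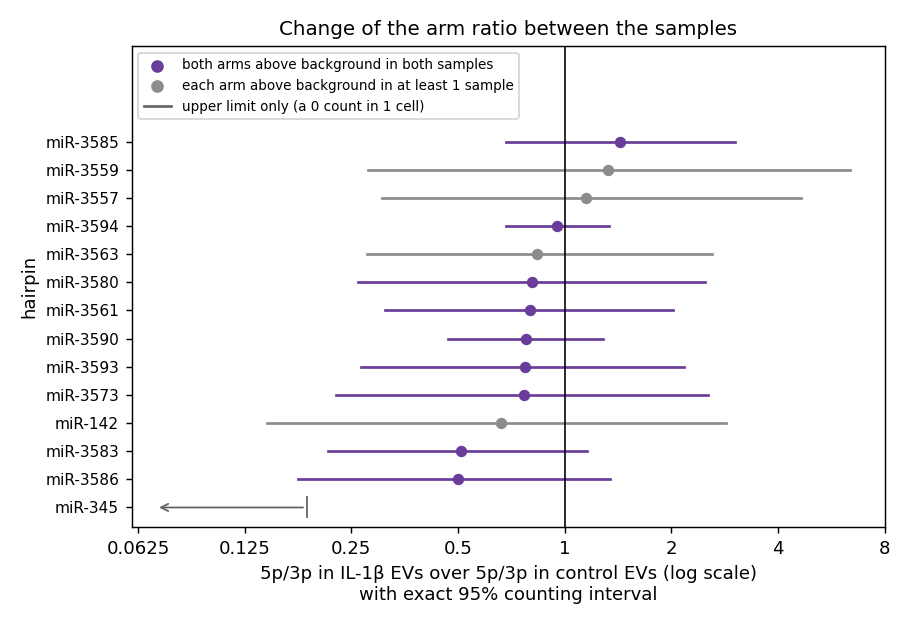
Change of the arm ratio, 5p/3p in the IL-1β EVs over 5p/3p in the control EVs, on a log axis with exact 95% counting intervals; purple marks the 9 hairpins with both arms above background in both samples, grey the 4 with each arm above it in at least 1 sample, and the arrow the upper limit for miR-345. All 13 intervals cross 1, and miR-345, whose 3p arm is below background in both samples, lies below it.

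Without any background filter the interval excluded 1 in 2 of 39 pairs, miR-345 and miR-292, where the share over all 48 such pairs of the code set was 4.17%. miR-292 had 0 counts of 5p and 6 of 3p in the IL-1β EVs and 4 and 1 in the control EVs, all below background. Of the 25 detected hairpins, 20 had the same higher arm in both samples. The 5 others were miR-345, miR-3559, miR-3561, miR-3585 and miR-324. The 5p arm of miR-324, which is known to act in Hedgehog signalling, had 2 counts in the IL-1β EVs and 7 in the control EVs, and its 3p arm had 5 in each. miR-1188, from the imprinted Dlk1-Dio3 region, had 2 counts of its 3p arm in the IL-1β EVs and 7 in the control EVs, and 0 and 3 of its 5p arm.

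The authors' deposited table gives normalized signals for 124 miRNA probes, 20 of them arm probes. By the authors' deposited signals, the ratio of IL-1β over control was below 1 for 16 of the 20 and above 1 for 4, with a median of 0.832, and 0.883 over the 119 probes with both signals. At least 2-fold higher was 1 of the 20, where the share over all 119 was 9.24%, and 0 of the 20 were at least 2-fold lower, where the share was 8.40%. These ratios were computed from the signals. For miR-148b-3p the authors' own ratio entry was 0, whereas its signals, 51.56 in the IL-1β EVs and 85.76 in the control EVs, give 0.601. The authors' deposited ratio and the raw-count ratio could both be had for 17 arm probes. They lay on the same side of 1 for 5, while 11 were above 1 by raw counts and below 1 by the deposited signals, and 1 (miR-3563-5p) the reverse. The normalization behind these signals is unknown here, and for 12 of these 17 probes the direction depends on which of the deposited values is read.

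**Figure D4:**
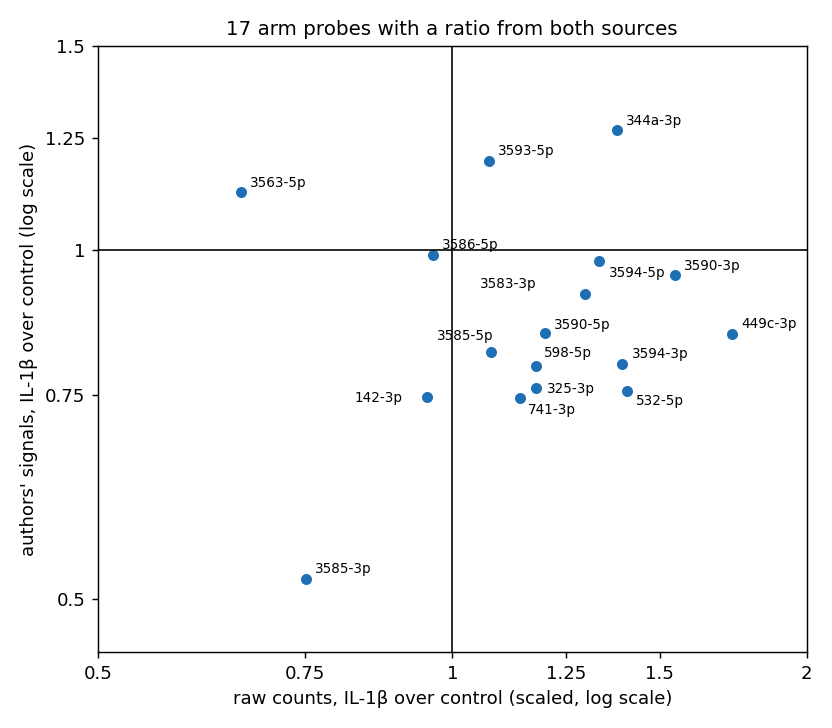
Ratio of IL-1β over control for the 17 arm probes with a ratio from both sources, with the scaled raw counts on the horizontal axis and the authors' deposited signals on the vertical axis, both on log scales. The lower right quadrant, above 1 by raw counts and below 1 by deposited signals, holds 11 of the 17 points.

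For some probes a common rescaling of the samples would not bring the sources together. In the authors' deposited table miR-324-5p had a signal of 57.77 in the IL-1β EVs and 16.61 in the control EVs, a ratio of 3.48, the arm probe at least 2-fold higher there, whereas its raw counts were 2 and 7. In the same deposited table miR-148b-3p and miR-325-3p both had a signal of 51.56 in the IL-1β EVs, with 7 and 102 raw counts there. By the authors' deposited signals miR-344a-3p was higher in the IL-1β EVs, at 63.24 against 49.83 in the control EVs, the direction of its raw counts. The authors' deposited signals gave both arms for 3 hairpins, with arm-ratio changes of 1.57 for miR-3585, 0.892 for miR-3590 and 1.23 for miR-3594, beside 1.43, 0.777 and 0.954 from raw counts. miR-3585 and miR-3590 lay on the same side of 1 in both sources, and miR-3594 did not.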

How the data were processed

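Each sample was measured on a NanoString nCounter rat miRNA code set. The deposited raw files hold reporter counts with no normalization, per the file headers, beside other header values in the same column. A table of normalized signals and of their ratio, IL-1β over control, was deposited by the authors too. Nothing used here states how it was normalized. Probes were paired by name with Python 3.11.15, and exact binomial and conditional odds-ratio intervals were computed with SciPy 1.17.1 and checked on simulated data. Counts were scaled on the 100 highest miRNA probes with background left in, which understates changes of low counts. Total miRNA counts were 13514 for IL-1β and 16812 for the control, which limits pairs near background to wide intervals. The members and lists were chosen with earlier results of these data known.

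Hairpins given with values had each arm above background in at least 1 sample, a called arm, or 1 arm above background in both samples and the other in none. Others named with counts were chosen after their values were seen. Of the lists not described above, the probes above background in IL-1β and in control EVs were as follows. Brain-rich miRNAs had 2 and 4 of 16, with miR-204 called lower. Immune-cell miRNAs had 2 and 3 of 6, Hox-cluster miRNAs 0 and 1 of 6, epithelial miRNAs 0 and 2 of 9, muscle miRNAs 3 and 3 of 4, and the X-linked miR-322 cluster 1 and 1 of 6. The shares over all miRNA probes were 34.8% in the IL-1β EVs and 44.0% in the control EVs.

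As alternatives, counts were left unscaled or scaled on the median ratio, the total miRNA count or the positive controls, the mean of the negative controls was subtracted, and other choices were made for background thresholds, fold minimums and arm filters, pairs with a mouse gene alone, and the authors' deposited signals.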

Additional observations from a re-analysis of the deposited data

How the results depend on the processing

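No paired analysis was possible because each group held 1 sample. Of the count of 2 arm probes called higher, 0 were left with scaling on positive controls, on the median ratio or none, 1 with mouse-gene pairs alone, and 4 and 0 at fold minimums of 1.5 and 4. The count of 1 called lower became 4 with positive controls and 0 at a fold of 4. The median log2 ratio was -0.45 with positive controls, 0.50 with total count, 0.046 with the median ratio, 0.13 unscaled and 0.24 with mouse-gene pairs alone. Positive-control scaling shifted every log2 ratio by -0.78 and turned 20 of 33 single ratios to the other side of 1, the authors' deposited signals turned 12 of 18, and subtracting background turned 0 of 33. With mouse-gene pairs alone, 8 probes in the IL-1β EVs and 12 in the control EVs were above background and 0 hairpins had both arms in both samples. The arm-ratio intervals that excluded 1 numbered 2 with no background filter, an alternative chosen after seeing the data, and the 9 arm-ratio changes kept their side of 1 under background subtraction and with 0.5 counts added. miR-342-5p had ratios of 1.33, 1.89 and 2.00, and miR-3558-5p 1.39, 1.98 and 2.09, with positive controls, the median ratio and no scaling. The cause of these differences was not tested. Counts under about 30 per arm limit most arm-ratio changes to several-fold intervals.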
